A study of Bos taurus with 20 samples.

Results

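Liver gene expression was compared between late-pregnant dairy cows on a low phosphorus ration (LP) and cows on an adequate one (AP), in samples taken before calving, while the rations still differed. These antepartum samples were chosen by their time label and make up 10 of the 20 arrays of the study, 5 from LP cows and 5 from AP cows, and 20011 genes were tested on them. The cows were multiparous Holstein-Friesians, 10 of the 30 that the study enrolled, and each cow gave 1 antepartum and 1 postpartum array, so n = 5 cows per diet throughout. In the last 4 weeks of the dry period phosphorus made up 0.16% of dry matter in LP and 0.35% in AP. Both diets were restricted to 11.5 kg of dry matter, so the AP cows were feed-restricted too. AP concentrate carried mono-ammonium phosphate and LP concentrate carried urea to match nitrogen, so the rations differed in these supplements as well as in phosphorus. After calving all cows ate 1 lactation ration of adequate phosphorus. LP cows are called A to E and AP cows F to J, in the order of the labels.

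Phosphorus is taken up and held in the body as inorganic phosphate. Cells import it through sodium-coupled transporters of the SLC20 and SLC34 families and export it through XPR1, while FGF23, parathyroid hormone and vitamin D set how much the kidney and gut retain. In liver, phosphate is needed for ATP, for the phosphorylated sugars of glycogen and glucose metabolism and for phospholipids. In dairy cows a low phosphate supply around calving has been studied for its bearing on energy metabolism, liver function and immune cells. The comparison asks whether liver transcripts differed while the phosphorus supply differed.

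Values are log2 signals, so a difference of 1 is a 2-fold difference, and differences are LP minus AP unless stated. The arrays resembled each other closely, with a correlation over genes of 0.974 to 0.99 within a group and 0.98 to 0.989 between the antepartum diets. Of 15 hepatocyte markers, 14 lay above the 90th percentile of all genes, and their differences ran from -0.10 to 0.12. Among the arrays 3 stood apart. The LP array of cow B had a score of -37.29 on the first principal component of the antepartum arrays, which held 24.1% of their variance, against -8.49 to 23.50 in the other 9. The AP array of cow F carried the skeletal muscle markers, with a score, the mean over the list of log2 signals centred on each gene's mean over the 20 arrays, of 1.46 against at most 0.19 in the other 9. The postpartum LP array of cow C, which enters the shared spread and the postpartum values, had an adipocyte score of 3.25, against at most -0.08 in the other postpartum arrays. Its stellate cell and fibroblast score was 2.91 against at most 0.39, and its skeletal muscle score 1.55 against at most 0.05. Values without single cows or arrays are given beside several of the lists that leaned toward 1 diet, but not beside all of them.

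SYT4 was the only gene of 20011 (0.005%) to pass at an adjusted p under 0.05, and it was higher in LP. It encodes synaptotagmin 4, a membrane protein of secretory vesicles best known from neurons and endocrine cells. Its probe set lies on the plus strand of chromosome 24 from 12950391 to 12960189, as the authors' file has it. No source used here names the genome build of these positions. The LP cows A to E measured 8.96, 8.45, 8.59, 8.71 and 8.30, and the AP cows F to J 7.70, 7.76, 7.78, 7.71 and 7.92. Every LP cow was above every AP cow, with a gap between cow E and cow J. The LP mean of 8.60 ± 0.25 (SD, n = 5) exceeded the AP mean of 7.78 ± 0.09 by 0.83 (SE 0.117, 95% interval 0.59 to 1.07, limma adjusted p = 0.0109) or 1.78-fold. SYT4 lay at the 85th percentile of all genes in these livers.

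The call did not hold in every alternative. With only the 10 antepartum arrays the adjusted p was 0.167. Leaving out cow A gave 0.0617 and leaving out cow D gave 0.12. Among AP cows, leaving out F gave 0.0985, G gave 0.0922 and I gave 0.104, and leaving out only the antepartum array of F gave 0.0625. The difference itself stayed between 0.74 and 0.90 in all 25 alternatives. It was 0.74 without cow A, 0.80 without D, 0.81 without F or I and 0.83 without G, where fewer arrays entered the fit.

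The same cows differed in SYT4 after calving, when they shared 1 ration. Postpartum LP values for A to E were 8.45, 8.53, 8.76, 8.53 and 8.37, and AP values for F to J were 7.81, 7.67, 7.41, 7.80 and 7.79. Again no AP cow reached the lowest LP cow. The postpartum difference was 0.83 (limma adjusted p = 0.0105), where 1 gene of 20011, or 0.005%, passed. The change of the difference between the times was 0.00 (95% interval -0.35 to 0.34). Whether SYT4 differed between these cows before the rations were fed was not tested, since no earlier samples are analysed here.

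**Figure D1:**
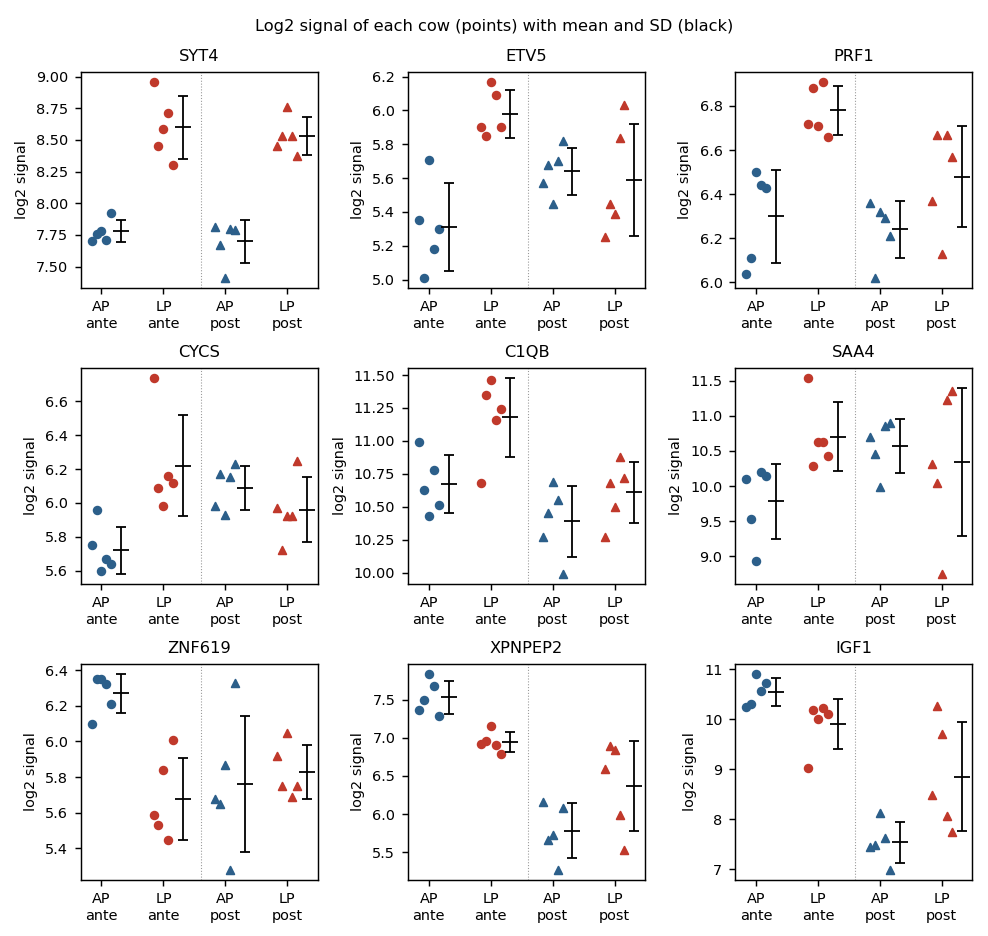
Log2 signal (vertical axes) of SYT4 and 8 other genes in each cow, before and after calving, for LP (cows A to E) and AP (cows F to J); black bars are the mean and SD of each group of 5. SYT4 values of LP cows lie above all AP values at both times, from 8.30 against at most 7.92 antepartum.

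No other synaptotagmin passed. Of 23 measured synaptotagmins, synaptotagmin-like and extended synaptotagmin genes, 11 had a positive difference, with a median of -0.02. SYT10 differed by -0.30 (95% interval -0.56 to -0.04), at the 12th percentile of all genes. SYT1, the calcium sensor of fast transmitter release, differed by 0.23 (interval -0.01 to 0.47) and SYT7, a calcium sensor of slower release, by 0.00 (interval -0.28 to 0.29).

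For the other genes the adjusted p was at least 0.9999. Without adjustment 490 genes, or 2.45%, had a limma p under 0.05, of which 242 (1.21%) were higher and 248 (1.24%) lower in LP. This is below the 1001 that uniformly distributed p-values give. The count was 900 without cow B, 715 when the cow C array from after calving was left out, and 753 with only the antepartum arrays. The median difference was 0.00, with the quartiles at -0.08 and 0.08 and a range from -1.43 to 1.48. All 5 LP cows were above all 5 AP cows in 52 genes, or 0.26%, and below them in 58, or 0.29%. The 95% interval of a gene had a median half-width of 0.29, or 1.22-fold, and for 97.9% of genes it excluded a 2-fold difference in either direction.

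**Figure D2:**
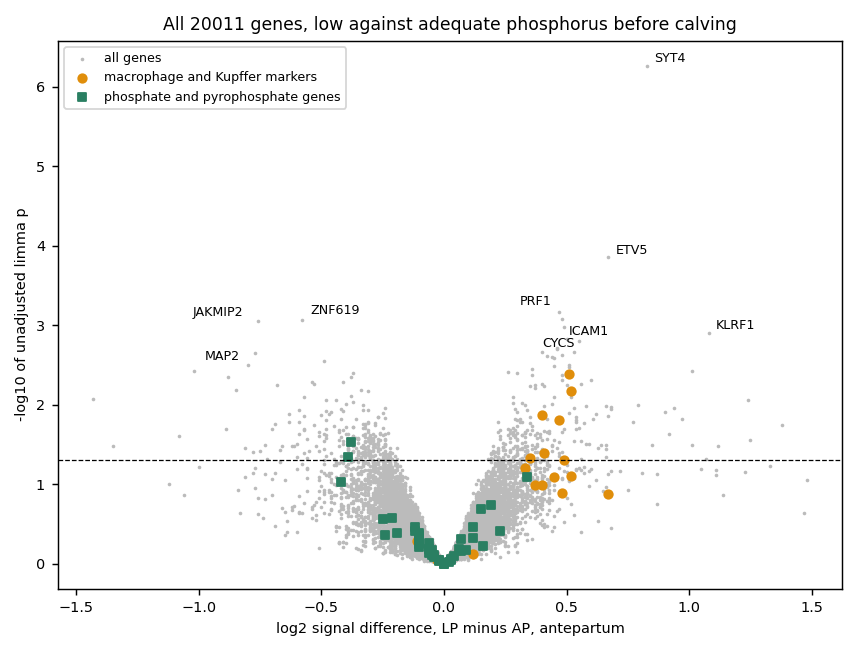
Difference LP minus AP antepartum in log2 signal (horizontal axis) against -log10 of the unadjusted limma p (vertical axis) for 20011 genes, with macrophage markers as orange circles, phosphate and pyrophosphate genes as green squares, a dashed line at an unadjusted threshold of 0.05 and SYT4 and some of the next genes named. SYT4 stands alone at 0.83, and the remaining genes spread evenly on both sides of 0.

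The genes of next lowest p in either direction did not pass, and their values are given as measured. Of 58 genes singled out below or in the lists with an unadjusted p under 0.05, 32 stayed under it whichever cow was left out. The other 26 did not, among them SLC17A2, ENPP3, PNP, GPAM, FGF21, UCP2, CEBPD, SAA4, C1QC, CD5L, AIF1, GPX4 and RPS18. Among those higher in LP several are known from leukocytes. PRF1, encoding the pore-forming perforin of cytotoxic lymphocytes, measured 6.66 to 6.91 in LP and 6.04 to 6.50 in AP, without overlap (difference 0.47, SE 0.119). BTK, a tyrosine kinase of B cells and myeloid cells, measured 5.61 to 6.07 in LP and 4.98 to 5.58 in AP, also without overlap (0.50, SE 0.136). In the next 3 genes only cows A and F overlapped. ICAM1, an adhesion ligand for leukocytes, differed by 0.48 (SE 0.122), SYK, a kinase of immune receptors, by 0.46 (SE 0.129) and CD97, an adhesion receptor of leukocytes, by 0.46 (SE 0.129). KLRF1, a receptor of natural killer cells, was higher by 1.08 (SE 0.29), but its LP values were uneven, at 5.31, 3.67, 3.31, 4.27 and 4.91 for cows A to E against 3.11 to 3.35 in AP.

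ETV5, an ETS-family transcription factor induced by growth factor signalling, had the second lowest p. Its LP values for A to E were 5.90, 5.85, 6.17, 6.09 and 5.90, and its AP values for F to J were 5.35, 5.01, 5.71, 5.18 and 5.30. All LP cows were above all AP cows, with a difference of 0.67 (SE 0.144, 95% interval 0.37 to 0.97). Postpartum its difference was -0.05. CYCS, encoding cytochrome c, was also higher in every LP cow, at 6.74, 6.09, 5.98, 6.16 and 6.12 against 5.75, 5.96, 5.60, 5.67 and 5.64 (difference 0.49, SE 0.13), and by 0.36 without cow A. CTSH, a lysosomal protease, differed by 0.55 (SE 0.151) without overlap.

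The genes lower in LP came from varied families. ZNF619, a zinc finger protein, measured 5.59, 5.53, 5.84, 5.45 and 6.01 in LP and 6.10, 6.35, 6.35, 6.32 and 6.21 in AP, without overlap (difference -0.58, SE 0.15), and 0.07 postpartum. JAKMIP2 differed by -0.76 (SE 0.195), with cow B inside the AP range. MAP2, a microtubule-associated protein, differed by -0.80 (SE 0.24) and by -1.12 postpartum (limma adjusted p = 0.812). C19H17orf58 and TSGA13 were lower in every LP cow, by -0.49 and -0.34. Also lower in mean were MIR2285D and MIR345, 2 microRNA genes, at -0.88 and -0.38, NRG1, a neuregulin growth factor, at -0.41, and KRT75, a keratin, at -0.53. TM4SF20, a membrane protein, was at -0.68.

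Among genes whose groups did not overlap, the widest differences included secreted liver products. SAA4, a constitutive serum amyloid A apolipoprotein, measured 11.54, 10.28, 10.63, 10.62 and 10.43 in LP and 10.10, 9.53, 8.93, 10.20 and 10.14 in AP (difference 0.92, SE 0.375), and it differed by 0.71 without cow A, the highest. EOMES, a transcription factor of cytotoxic lymphocytes, differed by 0.68 (SE 0.244).

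IGF1, the growth factor secreted by liver under growth hormone, was lower in every LP cow before calving. Its LP values were 9.02, 10.18, 10.00, 10.22 and 10.10, and its AP values 10.24, 10.31, 10.91, 10.57 and 10.73. The groups touched closely, since cow D lay just under cow F and cow A lay far below the rest. The difference was -0.65 (SE 0.364, 95% interval -1.41 to 0.11), and -0.43 without cow A. After calving the sign was opposite, at 1.32, and the change between the times was -1.97 (interval -3.04 to -0.90). These 2 values include the postpartum array of cow C, which stood apart, and are not given without it. XPNPEP2, a membrane aminopeptidase, was at -0.59 (SE 0.214) before and 0.59 after calving, with a change of -1.18. No gene passed for the change between the times, 0 of 20011 or 0%, with a lowest adjusted p of 0.9997 by limma. Without adjustment 559, or 2.79%, had a p under 0.05. SPRY3, of the Sprouty family of inhibitors of receptor kinase signalling, differed by -0.59 (SE 0.241) before and -0.38 after calving.

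The phosphate transporters showed no shared direction. Of 18 phosphate transporters 9 had a positive difference, and their median was 0.01 against 0.00 over all genes. SLC20A1, a sodium-phosphate importer present in most cells, measured 8.95, 8.33, 8.30, 8.31 and 8.83 in LP and 8.07, 7.76, 8.18, 8.45 and 8.58 in AP. The ranges overlapped, and the difference was 0.34 (95% interval -0.04 to 0.72). Its relative SLC20A2 differed by 0.00 (interval -0.23 to 0.23), and the exporter XPR1 by 0.12 (interval -0.14 to 0.38). SLC34A1, the main renal sodium-phosphate cotransporter, differed by 0.15 (interval -0.09 to 0.40), and SLC25A3, which brings phosphate into mitochondria, by -0.04 (interval -0.34 to 0.26). SLC37A4, the glucose-6-phosphate transporter of the endoplasmic reticulum, differed by 0.02 (interval -0.45 to 0.48).

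The SLC17 transporters were first described as phosphate transporters and are known for moving organic anions such as urate. They included the only one of the 18 transporters under an unadjusted p of 0.05, beside 2.45% of all genes. SLC17A2 measured 10.46, 11.06, 10.65, 10.87 and 11.27 in LP and 11.04, 11.33, 11.27, 11.25 and 11.35 in AP. Cows A, C and D were below all AP cows, while B and E were within their range. The difference was -0.39 (SE 0.183, 95% interval -0.77 to -0.01). SLC17A3 differed by -0.42 (interval -0.92 to 0.08), SLC17A4 by -0.19 (interval -0.66 to 0.28) and SLC17A1 by 0.23 (interval -0.32 to 0.78). Over the 18 transporters the intervals ran from -0.92 to 0.78.

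**Figure D3:**
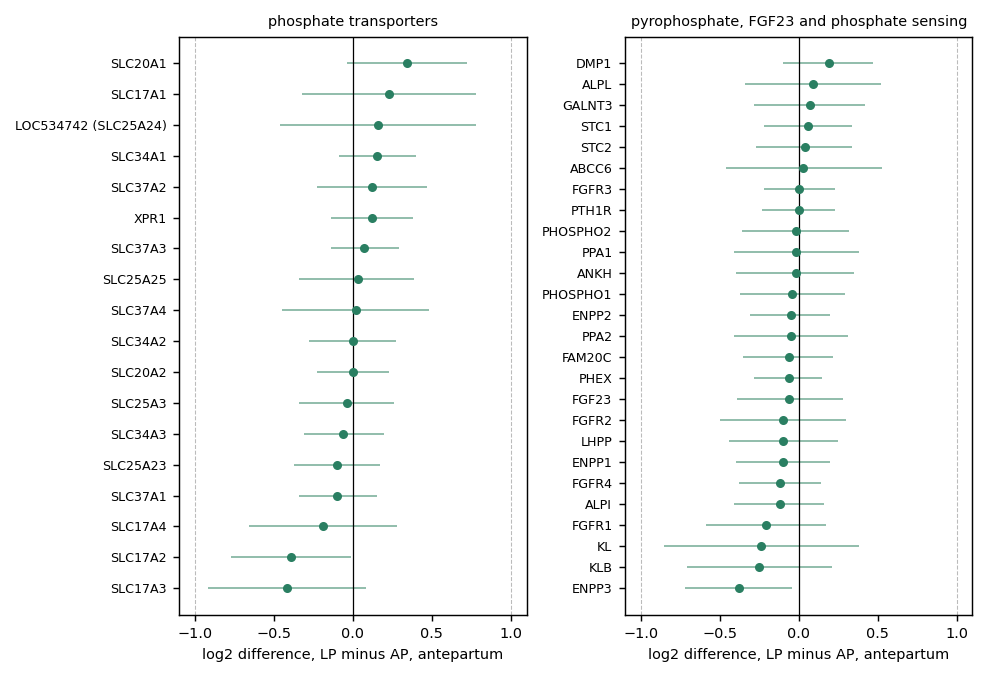
Difference LP minus AP antepartum in log2 signal (horizontal axis) with its 95% interval for each measured phosphate transporter and each gene of pyrophosphate metabolism, FGF23 and phosphate sensing; dashed lines mark a 2-fold difference. Only SLC17A2 at -0.39 and ENPP3 at -0.38 have intervals that leave out 0, before any adjustment.

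Among 26 genes of pyrophosphate metabolism, FGF23 and phosphate sensing 8 differences were positive, or 30.8% beside 48.9% of all genes. Their median was -0.05, and -0.08 to -0.03 when each cow was left out. ENPP3, an ectoenzyme that splits nucleotides and releases pyrophosphate, measured 5.65, 5.74, 6.21, 6.77 and 5.94 in LP and 6.59, 6.32, 6.57, 6.28 and 6.45 in AP. Cow D had the highest value of all 10 cows and the other LP cows were below the AP cows. Its difference was -0.38 (95% interval -0.72 to -0.04). ENPP1, the main source of extracellular pyrophosphate, differed by -0.10 (interval -0.40 to 0.20), and ALPL, the tissue-nonspecific alkaline phosphatase that splits it, by 0.09 (interval -0.34 to 0.52). ABCC6, through which liver releases ATP, differed by 0.03 (interval -0.46 to 0.53). KLB, a coreceptor for FGF21, differed by -0.25 (interval -0.71 to 0.21) and FGFR4 by -0.12 (interval -0.38 to 0.14). FGF23 and its coreceptor KL lay at or below the 40.6th percentile of all genes, with differences of -0.06 and -0.24.

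Vitamin D and calcium genes gave 11 positive differences of 29, or 37.9% beside 48.9% of all genes, and no unadjusted p under 0.05. Their median was -0.05, and -0.06 to -0.02 when each cow was left out. CYP27A1 and CYP2R1, which add the hydroxyl group that makes 25-hydroxyvitamin D in liver, differed by 0.12 (95% interval -0.30 to 0.55) and 0.01 (interval -0.36 to 0.37). VDR, the vitamin D receptor, differed by 0.04 (interval -0.32 to 0.39), and CYP24A1, which inactivates the hormone, by -0.14 (interval -0.35 to 0.07). GC, the vitamin D carrier of plasma, measured 13.39 ± 0.07 in LP and 13.41 ± 0.08 in AP. Inositol phosphate kinases and phosphatases, whose pyrophosphate products signal the phosphate state of cells, had a median of 0.01 over 33 genes and no unadjusted p under 0.05. Adenine nucleotide turnover had a median of 0.02 over 33 genes. PNP, purine nucleoside phosphorylase, was its single member under 0.05, beside 2.45% of all genes, at 0.30 (SE 0.131).

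Of all lists, macrophage markers had the highest median difference. Of 18 macrophage and Kupffer cell markers, Kupffer cells being the resident macrophages of liver, 16 had a positive difference and the median was 0.41, against 48.9% positive and a median of 0.00 over all genes. Without adjustment 7 of the 18 had a p under 0.05, all higher in LP, beside 1.21% of all genes, and none passed after adjustment. Each cow's markers move together in these bulk samples, so the genes of a list are not independent observations. More cells of a type and more RNA per cell cannot be told apart here.

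The macrophage score was 0.32, 0.45, 0.53 and 0.37 in LP cows B to E and -0.13 in cow A. In AP it was 0.14 in cow F and -0.17 to -0.01 in the other cows. Cow A thus lay among the AP cows, and without it 17 of 18 markers were positive, 9 had an unadjusted p under 0.05 and the median was 0.48. Without any 1 of the other cows the median stayed between 0.36 and 0.46, but fewer markers were under 0.05 in most cases. There were 3 without cow D, 4 without cow E, H, I or J, 5 without G and 6 without B. With only the 10 antepartum arrays 13 had such a p, and 10 did when the cow C array from after calving was left out. C1QB, a subunit of the complement starter C1q, which Kupffer cells make, measured 10.68, 11.35, 11.46, 11.16 and 11.24 in LP and 10.99, 10.63, 10.43, 10.78 and 10.51 in AP (difference 0.51, SE 0.158). Its partners C1QA and C1QC differed by 0.52 (SE 0.172) and 0.41 (SE 0.188).

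In the receptors and other proteins of macrophages, too, cow A differed from the other LP cows. CD163, the scavenger receptor for hemoglobin and haptoglobin, measured 8.60, 8.92, 9.04, 9.34 and 9.07 in LP and 8.70, 8.36, 8.50, 8.56 and 8.51 in AP (difference 0.47, SE 0.178). CSF1R, the receptor for macrophage colony stimulating factor, differed by 0.40 (SE 0.149), CD5L, a secreted macrophage protein, by 0.35 (SE 0.165) and AIF1 by 0.49 (SE 0.233). In CD163, CD5L and AIF1 cow A was the lowest LP cow and lay inside or below the AP range. CD68, a lysosomal macrophage protein, was higher in every LP cow, at 8.81 to 9.50 against 8.41 to 8.80 (difference 0.48, 95% interval -0.15 to 1.12). The spread behind this interval includes the postpartum arrays, where LP values reached 10.52. CD14, the lipopolysaccharide coreceptor, and LGMN, a lysosomal protease, had small negative differences of -0.11 and -0.03.

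Of 21 T and natural killer cell markers 20 had a positive difference, with a median of 0.17, against 48.9% positive and a median of 0.00 over all genes. Of these 4 had an unadjusted p under 0.05 and were higher in LP, beside 1.21% of all genes. Their scores were 0.24, 0.12, 0.40 and 0.46 in cows B to E, -0.15 in cow A and -0.22 to -0.01 in AP. Without cow A, 19 of 21 were positive, 9 had such a p and the median was 0.29. Without cow E, 18 were positive and the median was 0.11, and without cow B 18 were positive and 3 had such a p. There were 8 with only the antepartum arrays, and 7 without cow C or without its postpartum array. KLRK1, the activating receptor NKG2D, measured 6.38, 6.20, 6.31, 7.09 and 7.96 in LP and 6.58, 5.81, 5.85, 5.23 and 5.76 in AP (difference 0.94, SE 0.338). PRF1, described above, is on this list too. The part that the level of these markers has in the differences of single leukocyte genes such as PRF1, BTK and KLRF1 was not tested. The list lay low on these arrays, with a median at the 43.4th percentile of all genes, while the macrophage list had its median at the 90.6th.

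Neutrophil markers had a median of 0.14 over 14 genes (0.05 to 0.19 when each cow was left out). The single one under 0.05, beside 2.45% of all genes, was FCGR3A (0.60, SE 0.189), an Fc receptor that macrophages and natural killer cells also carry. B and plasma cell markers had a median of -0.09 over 12. Endothelial markers had a median of 0.03 over 12, cholangiocyte markers of -0.09 over 11 and platelet markers of -0.06 over 9. Erythroid markers had a median of -0.06 over 10 and adipocyte markers of -0.05 over 9, of which 2 were positive. Muscle and connective tissue markers leaned toward AP, beside 48.9% positive over all genes. Skeletal muscle had 1 of 18 positive and a median of -0.25, and stellate cells and fibroblasts 1 of 16 and -0.23. Without the antepartum array of cow F these were 6 of 18 and -0.04, and 6 of 16 and -0.05. MYH1, a fast muscle myosin, differed by -0.78 with that array and -0.46 without it. Without that array the macrophage median was 0.46, and the T and natural killer cell median 0.17.

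**Figure D4:**
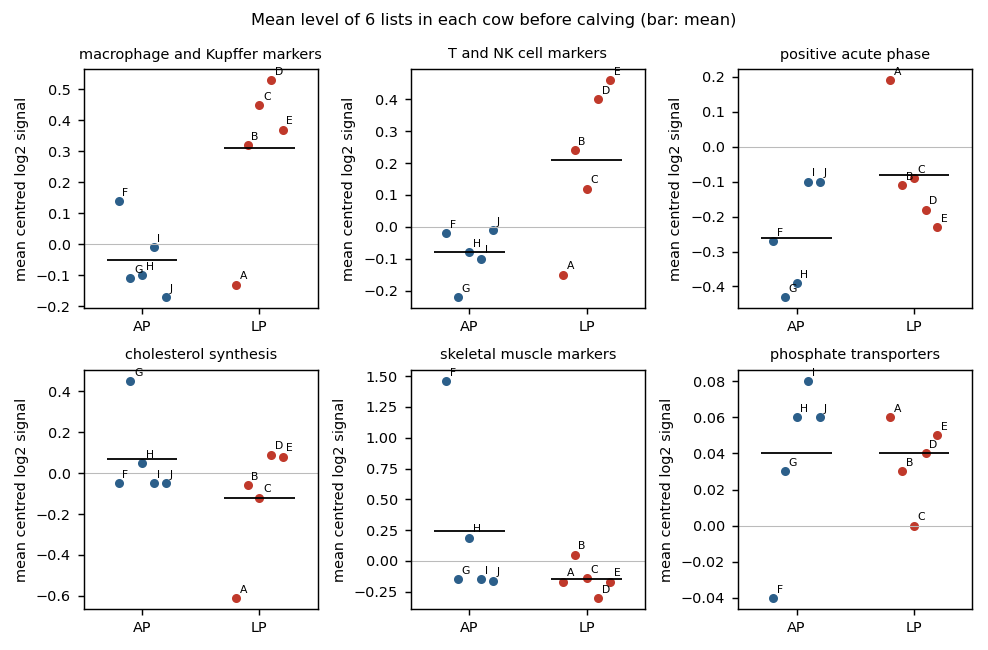
Mean log2 signal of 6 gene lists in each antepartum sample, each gene centred on its mean over the 20 arrays (vertical axes), for LP cows A to E and AP cows F to J; bars are group means. The macrophage score is 0.32 to 0.53 in 4 LP cows and -0.13 in cow A, and the skeletal muscle score is 1.46 in cow F alone.

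Of 36 NF-kB, cytokine and chemokine genes 25 were positive, with a median of 0.12, beside 48.9% and 0.00 over all genes. An unadjusted p under 0.05 was found for 5, all higher in LP, beside 1.21% of all genes. Without cow C, 21 were positive and the median was 0.08, and without cow J 3 had such a p. IL1A, an interleukin 1 cytokine, measured 4.81, 4.56, 4.71, 4.55 and 4.87 in LP and 4.19, 4.38, 4.31, 4.27 and 4.16 in AP, without overlap but at a low level (difference 0.44, SE 0.127). CD86, a costimulatory ligand of antigen-presenting cells, measured 6.36 to 6.99 in LP and 5.96 to 6.33 in AP, without overlap (0.52, SE 0.176), and differed by 0.45 after calving. The antigen presentation list that holds it had 15 of 26 positive and a median of 0.04. CFD, complement factor D, measured 9.27 to 9.74 in LP and 8.64 to 9.19 in AP (0.51, SE 0.152), in a complement and coagulation list with 22 of 38 positive and a median of 0.01. Of 42 interferon-stimulated genes 35 were positive, beside 48.9% of all genes, with a median of 0.14 and none under an unadjusted p of 0.05. There were 4 under it without cow B, where the median was 0.21, 5 with only the antepartum arrays and 7 with array number as a covariate. IRF9, a subunit of the factor that activates these genes, was closest, at 0.33 (SE 0.167).

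Acute phase genes were mixed. Of 31 positive acute phase genes 22 had a positive difference, with a median of 0.05, beside 48.9% and 0.00 over all genes. With an unadjusted p under 0.05, 3 were higher and 1 lower, beside 1.21% and 1.24% of all genes. Without cow A none had such a p in either direction, and 1 was higher without cow G or H. CEBPD, a transcription factor of the acute phase response, measured 9.16, 8.62, 8.76, 8.85 and 8.41 in LP and 7.99, 8.00, 8.05, 8.22 and 8.58 in AP (difference 0.59, SE 0.256), and 0.49 without cow A. APCS, the pentraxin serum amyloid P, went the other way, at 10.62 to 11.70 in LP against 11.45 to 11.88 in AP (-0.56, SE 0.264). Acute phase scores reached 0.19 in cow A, whose macrophage score was the lowest of LP, and lay from -0.23 to -0.09 in the other LP cows and from -0.43 to -0.10 in AP.

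No list of lipid metabolism had a member that passed. FGF21, the hormone that liver secretes in energy shortage, was higher in mean in LP. Its values were 8.52, 5.77, 6.79, 7.46 and 6.47 in LP and 6.13, 5.66, 5.28, 5.45 and 6.86 in AP. The groups overlapped, and the difference of 1.12 (SE 0.493, 95% interval 0.10 to 2.15) was 0.75 without cow A. The fatty acid oxidation list that holds it had a median of -0.01 over 42 genes. UCP2, a mitochondrial carrier, was the list's other member under an unadjusted p of 0.05, beside 2.45% of all genes. It differed by 0.36 (SE 0.159), and by 0.22 without cow C.

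Fatty acid synthesis had 8 of 30 genes positive, beside 48.9% of all genes, and a median of -0.08. Without cow G these were 13 of 30 and 0.00. GPAM, which starts triglyceride synthesis, measured 9.64, 9.77, 9.47, 9.80 and 9.86 in LP and 10.11, 10.32, 9.81, 10.15 and 9.99 in AP (difference -0.37, SE 0.167). Of 23 cholesterol synthesis genes 21 had a negative difference and 8.7% a positive one, beside 48.9% positive of all genes. Their median was -0.18 and none was under 0.05. Cow A, at a score of -0.61, and cow G, at 0.45, lay at the ends, and the other 8 cows were between -0.12 and 0.09. The median was -0.09 without cow A and -0.11 without cow G. CYP51A1, a sterol demethylase of the pathway, differed by -0.36 (SE 0.235), and by -0.17 without cow A. CYP7A1, the rate-limiting enzyme of bile acid synthesis, differed by -0.78 (SE 0.411) with overlap.

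Cytochrome P450, conjugation and steroid genes had 8 positive differences of 39, with a median of -0.10, beside 48.9% and 0.00 over all genes. An unadjusted p under 0.05 was found for 2, both lower in LP, beside 1.24% of all genes. Without cow E 15 were positive and none was under 0.05, and without cow A the median was -0.06. SULT1E1, which sulfates estrogens, measured 6.88, 5.38, 4.44, 5.56 and 5.06 in LP and 8.75, 5.07, 6.75, 6.49 and 6.99 in AP. The ranges overlapped, with cow F the highest and cow G, at 5.07, near the lowest LP cows. The difference of -1.35 (SE 0.59) was -0.86 without the array of cow F. CYP26A1, which breaks down retinoic acid, differed by -0.73 (SE 0.318) before and by 0.27 after calving. Ketone body genes had a median of -0.02 over 10, with BDH2 at -0.48 (SE 0.198).

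Pathways that use phosphate most directly had medians close to that of all genes. Glycolysis and glycogen genes had a median of 0.03 over 33 and gluconeogenesis of -0.02 over 28, with no unadjusted p under 0.05. Oxidative phosphorylation had 48 of 72 genes positive, or 66.7% beside 48.9% of all genes, with a median of 0.05. Its differences ranged only from -0.14 to 0.19, and its median from 0.02 to 0.07 when each cow was left out. Urea cycle and amino acid genes had 13 of 40 positive, or 32.5%. Their median was -0.06, and -0.07 to -0.02 when each cow was left out. Cytosolic ribosomal proteins had a median of 0.01 over 72, with RPS18 lower in every LP cow (-0.23, SE 0.111), and the unfolded protein response had a median of -0.01 over 33. GHR, the growth hormone receptor, differed by -0.35 (SE 0.176) in a list of 25 growth hormone, IGF and insulin genes with a median of -0.01. GPX4, a selenoprotein that reduces lipid peroxides, was the single member of 29 redox genes under 0.05, beside 2.45% of all genes. It differed by 0.24, and by 0.19 without cow F, where its unadjusted limma p was 0.113. Lipoproteins, bile acid genes, negative acute phase proteins, cell cycle and iron and heme genes had medians from -0.05 to 0.05. Of the 12 negative acute phase genes 3 were positive, or 25%.

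**Figure D5:**
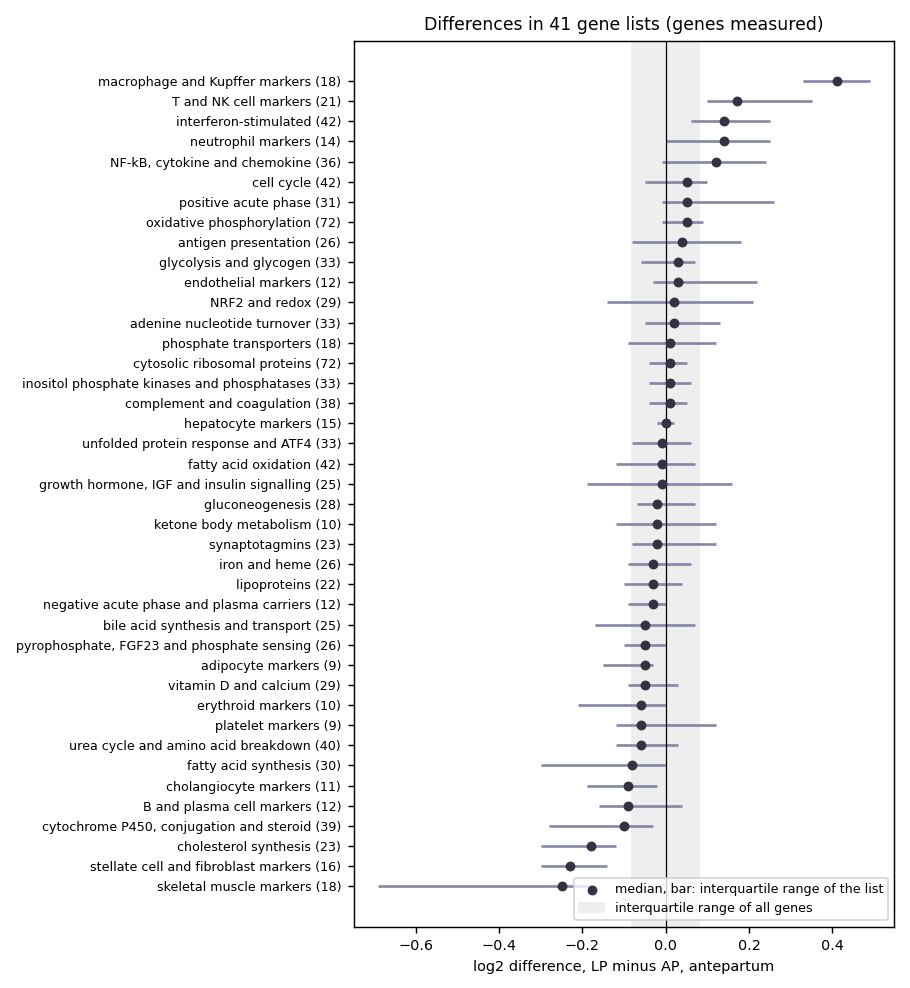
Median difference LP minus AP antepartum in log2 signal (points) and interquartile range (bars) for each gene list, with the interquartile range of all genes as a grey band and their median at 0.00; the number of measured genes stands beside each list. Macrophage markers lie farthest to the right at 0.41 and skeletal muscle markers farthest to the left at -0.25, and most lists lie within 0.10 of 0.

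After calving, when the rations no longer differed, the median of the macrophage list was 0.23, that of the T and natural killer cell list 0.16 and that of the interferon list 0.01. These values come from the same cows and are given beside the antepartum ones without a test of the lists. Postpartum, 1132 genes, or 5.66%, had a limma p under 0.05 without adjustment, against 2.45% antepartum. All these postpartum values include the cow C array that stood apart, and none is given without it. Its macrophage score of 0.34 was the highest of the postpartum LP arrays, against -0.55 to 0.18 in the others. Of the 18 macrophage markers 16 were positive after calving, as before it, beside 50.8% of all genes after calving. Their member C1QA, which differed by 0.52 before calving, differed by 0.04 after it, with a change of 0.48 (95% interval -0.03 to 0.99).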

How the data were processed

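The authors deposited log2 signals for 24333 probe sets on 20 arrays. SST-RMA is named per the file headers, and RMA and Affymetrix Expression Console 1.4 per the submitters' processing notes. RMA brings arrays to nearly 1 distribution (array medians 5.97 to 6.14), which hides any shift common to all genes. The other deposited table gives these log2 values rounded, with differences up to 0.005. Some symbols had been turned into dates and are not named.

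A gene was a single symbol. The brightest of its probe sets was used for the 386 genes with more than 1, and 3912 probe sets without a symbol were left out. No detection filter was applied. For names alone, RefSeq assembly ARS-UCD2.0 was searched and held 14476 of the genes by accession, a further 3663 by symbol, 79 by synonym and no match for 1793.

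Tests used lmFit, contrasts.fit and eBayes of limma 3.58.1 under R 4.3.3, with 4 group means over 20 arrays and 16 residual degrees of freedom. The p-values are two-sided and were adjusted by Benjamini-Hochberg over all 20011 genes, with 0.05 as the threshold. The 3 contrasts were LP minus AP antepartum, the same postpartum, and their difference. The main fit held no term for the cow, so the change between the times did not use the pairing of arrays. Unadjusted p-values are from these fits. The number of arrays limits the precision, and the median standard error of a difference was 0.14. The code was tested on simulated data. Figures were drawn with matplotlib 3.10.9 under Python 3.11.15.

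The members, the 41 lists (29 of pathways, 12 of cell markers, 1061 measured genes) and the rules were chosen with earlier results of these data known. Named genes were those that passed, the 10 of lowest p per direction, the 5 widest per direction without overlap between groups, up to 2 per direction from each list at an unadjusted p under 0.05 or else the 2 of lowest p, and any member of the phosphate, vitamin D, synaptotagmin and macrophage lists. Symbols starting with LOC were left out of the gene ranks. Some genes that these rules select are not reported here.

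Each title holds a number that occurs once at each time within 1 diet, and it was taken to identify the cow. Numbers pair the 2 arrays of a cow across times, and the diets share no cow. Residuals of a cow's 2 arrays correlated with a median r of 0.167 over genes (0.0719 to 0.312, over 0.1 in 8 of 10 cows). Cow as a random block was an alternative, with 24 others: normalization, filters, probe set choice, variance, array weights, array number, only the antepartum arrays, the rounded table and left-out cows or arrays. Leaving out the antepartum array of cow F and using all probe sets were added after seeing the data. Nothing in the labels gives the day of sampling or how 10 of 30 cows were chosen.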

Additional observations from a re-analysis of the deposited data

Results flagged for a closer look

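A cow stood far from the other 4 of its antepartum group, by the ratio of its gap to the group's range, in 11 of 202 groups tested, and chance gives about 1 in 20. In LP, cow A was high in CYCS (6.74) and SAA4 (11.54) and low in IGF1 (9.02) and AIF1 (8.21). Cow A was also low in the score of NF-kB, cytokine and chemokine genes (-0.14). Cow E was low in the score of iron and heme genes (-0.19).

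In AP, cow G was high in the scores of fatty acid synthesis (0.51) and cholesterol synthesis (0.45). Cow J was high in the interferon-stimulated score (-0.02) and low in the synaptotagmin score (-0.09). Cow F was high in the skeletal muscle score (1.46).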

How the results depend on the processing

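Over 25 alternatives SYT4, the only called gene, kept its direction. The count of genes passing was 0 with only the 10 antepartum arrays and 0 without the antepartum array of cow F. It ran from 0 to 1 when each cow was left out, with 0 without cows A, D, F, G and I, where fewer arrays entered the fit. At an unadjusted p under 0.05 with 1.5-fold it was 59 (30 higher and 29 lower in LP). With cow as a random block (the replicate block, correlation 0.1154) it was 1, with 492 genes at an unadjusted p under 0.05. The block thus changed no antepartum call, and its values for the change between the times are not given. The 490 genes at an unadjusted p under 0.05 became 753 with only the antepartum arrays, 1041 with array weights, 212 among genes above the median level, where fewer genes were tested, and 395 to 900 when each cow was left out, the highest being without cow B. Otherwise the cause was not tested. SYT4 passed in 18 alternatives. List medians moved by more than the spread between cows in 4 cases, all in filters on dim genes that left 2 to 4 members. The shift of the median of all genes stayed within -0.01 to 0.00. Signals near background, for which no detection call was used, limit what can be read from genes below the lower quartile of 5.06.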
